A study of Mus musculus with 6 samples.

Results

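The cadherin superfamily was read in 6 B16 melanomas grown under the skin of mice. Its members were taken as the protein-coding genes whose symbols begin with Cdh, Cdhr, Pcdh, Dsg, Dsc, Celsr, Fat (1 to 4) or Dchs, without Cdh5, which gave 114 genes of the 55536 listed. The family was singled out because Cdhr2 was already known to differ between the groups, so the values of Cdhr2 are given as a description and carry no test. 1 symbol, Pcdha11, stands for 2 of the 114 gene identifiers.

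B16 cells derive from a melanoma of C57BL/6 mice. About 100000 of them, either carrying a vector control or with ATM knocked out (ATM KO), were injected into C57BL/6J mice, and whole tumors were taken on day 13, 3 per group. ATM is a kinase of the response to broken DNA, and the series title places the experiment in work on ATM, leakage of mitochondrial DNA, cGAS and STING, and immunotherapy. How ATM was disrupted, whether the ATM KO line is 1 clone and how many mice bore the tumors are not in the labels. The p-values therefore cover only the spread over 6 tumors, which may be technical in part, and effects of genotype and of the line that carries it cannot be told apart.

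Cadherins are membrane proteins with repeated calcium-binding extracellular domains. Classical cadherins join cells by binding the same cadherin on the next cell, and their tails hold catenins that connect to actin. Desmosomal cadherins do the same for keratin filaments, and protocadherins, many of them encoded in 3 neighboring gene clusters, give neurons and other cells surface identities. Fat, Dachsous and Celsr proteins are giant cadherins of planar cell polarity, and the cadherin-related protein Cdhr2 pairs with Cdhr5 in the links between intestinal microvilli. In melanoma the family is known for the exchange of E-cadherin (Cdh1), which holds melanocytes to keratinocytes, for N-cadherin (Cdh2).

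Each library held 22101124 to 29037715 counts on genes, and 57 of the 114 members had enough counts to be tested among 15696 genes. Melanocytic markers summed to between 18811 and 27174 CPM (library-size-scaled counts, with TMM factors) in each tumor, which matches the label of the tissue. Atm was at 111, 107 and 95.5 CPM in vector control tumors 1, 2 and 3 and at 97.2, 132 and 107 CPM in ATM KO tumors 1, 2 and 3; whole-gene counts from tumors that also hold host cells do not check a knockout whose site is not stated. Values per tumor are given below in the same order. Libraries differed in host tissue: the summed CPM of 6 fibroblast markers was 275, 2109 and 2991 in vector control and 1408, 1531 and 1318 in ATM KO tumors, and that of 6 skeletal muscle markers 17.9, 52.9 and 6484, and 2250, 6024 and 506. In such bulk samples, fewer cells of a type and less RNA per cell cannot be told apart.

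The promoter of Cdhr2 is shown because this gene has by far the highest fold in the family, and that of Cdhr5 because its protein is the partner of Cdhr2. Each run holds the 250 bases before the RefSeq start (GRCm38.p6), written 5′ to 3′ on the gene's strand, at chr13:54701213-54701462 (plus strand) for Cdhr2 and chr7:141276787-141277036 (minus strand) for Cdhr5.
Cdhr2: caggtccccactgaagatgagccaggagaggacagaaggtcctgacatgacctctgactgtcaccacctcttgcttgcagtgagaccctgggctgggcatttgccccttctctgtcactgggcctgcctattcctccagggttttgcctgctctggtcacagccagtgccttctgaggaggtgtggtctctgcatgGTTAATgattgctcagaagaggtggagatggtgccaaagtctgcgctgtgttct
Cdhr5: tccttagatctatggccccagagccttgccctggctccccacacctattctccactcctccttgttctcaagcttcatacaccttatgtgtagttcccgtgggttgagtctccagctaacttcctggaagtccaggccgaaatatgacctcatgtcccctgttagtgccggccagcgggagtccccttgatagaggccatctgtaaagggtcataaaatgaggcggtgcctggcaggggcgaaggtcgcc
The capitals mark a match to GTTAAT, the core of the left side of the palindrome known for HNF1 factors, which begins 54 bases before the start. This motif was chosen after the window had been read. Searched on both strands, it stood in 2113 of 32851 windows of the same length (6.43%) and in 4 of the 37 windows of members, those of Cdhr2, Cdh18, Cdh20 and Fat2. The 37 windows belong to 34 genes. The Cdhr5 window held no match. Both windows held 1 CANNTG (66.2% of all windows, 21 of the 37 of members) and no TATAAA (12.4% of all windows, 2 of the 37).

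Cdhr2 (ENSMUSG00000034918.8, chromosome 13, 54701461 to 54736662, GRCm38, plus strand) was close to silent in vector control tumors and well expressed in ATM KO tumors. It had 11, 43 and 45 counts in vector control tumors and 1148, 1128 and 1162 counts in ATM KO tumors. In CPM these were 0.487, 1.97 and 1.86 against 47.1, 40.4 and 39.8. All 3 ATM KO tumors lay far above all vector control tumors, and within the ATM KO group the values were close to each other. The means were 1.44 ± 0.826 and 42.4 ± 4.06 CPM (SD, n = 3 per group), a 29.5-fold ratio, and the lowest ATM KO tumor was 20.2-fold above the highest vector control tumor. The log2 fold change was 4.88 ± 0.48 (SE), the eighth highest (rank 8) of the 15696 genes. Among all family counts in a tumor, Cdhr2 held 0.0528% to 0.213% in vector control and 4.98% to 6.10% in ATM KO tumors. Leaving out any 1 of the 6 tumors gave log2 fold changes of 4.47 to 5.18.

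The genes beside Cdhr2 showed no rise of this size. Upstream, Higd2a, Cltb, Faf2 and Rnf44 were all expressed, with log2 fold changes of 0.15, 0.06, -0.10 and -0.14 and edgeR adjusted p of 0.480, 0.733, 0.525 and 0.327. Downstream, Gprin1 lies on the other strand and its annotated end is 9 bases from that of Cdhr2. It had 7, 15 and 21 counts in vector control and 1, 0 and 0 in ATM KO tumors, so the order of the groups was the opposite of that in Cdhr2, at counts too low to be tested. Sncb and Eif4e1b had at most 1 count in any tumor. Tspan17, the next gene, was at 8.93 ± 0.980 and 11.3 ± 0.241 CPM (SD, n = 3 per group). Its log2 fold change was 0.34, with an edgeR adjusted p of 0.181. ATM KO values lay wholly above for Tspan17 and wholly below for Rnf44, as in 14.3% and 15.4% of all tested genes. The median log2 fold change of the 78 other tested genes between 50000000 and 60000000 on chromosome 13 was -0.08, and that of the 607 tested genes on the chromosome -0.07.

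**Figure D1:**
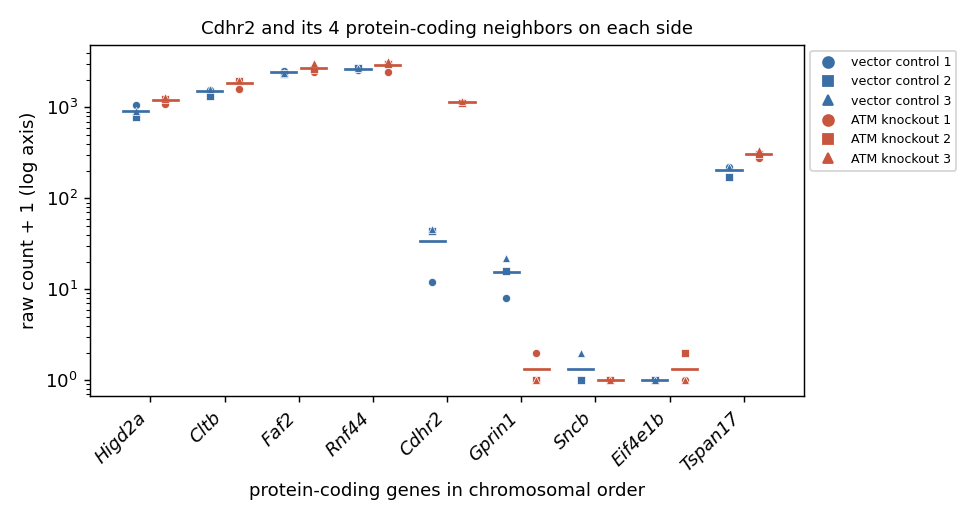
Raw counts plus 1 (log axis) of Cdhr2 and the 4 protein-coding genes on each side in chromosomal order, 1 point per tumor, with bars at the group means. The ATM KO points of Cdhr2 lie between 1128 and 1162 counts and the vector control points between 11 and 45, while Gprin1 beside it has at most 1 count in ATM KO tumors.

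The microvillus partners of Cdhr2 ranged from silent to highly expressed. Cdhr5, its binding partner, had 0 counts in all vector control tumors and 1, 5 and 0 in ATM KO tumors. Ush1c (harmonin), Anks4b and the motor Myo7b, which anchor the complex at microvillus tips, had at most 3 counts in any tumor. Calml4, a light chain of that complex, had 25, 24 and 19 counts against 36, 31 and 39, with a log2 fold change of 0.39 ± 0.26 (edgeR adjusted p = 0.443). The actin bundlers Vil1 (log2 fold change -0.18, edgeR adjusted p = 0.851) and Espn (-0.56, edgeR adjusted p = 0.589) did not pass the test. Eps8, an actin capping and bundling protein of microvilli and other protrusions, fell: it was at 1752, 1524 and 1245 CPM in vector control and 936, 951 and 1016 CPM in ATM KO tumors. All ATM KO values lay below all vector control values (log2 fold change -0.64 ± 0.13, edgeR adjusted p = 0.0472). That call was lost with limma-voom (adjusted p = 0.0535), with non-robust dispersions (edgeR adjusted p = 0.0522) and without vector control tumor 2 or any 1 of the ATM KO tumors (edgeR adjusted p of 0.0907 to 0.173). Markers of intestinal or renal epithelium were low: the 8 listed genes, Vil1 included, summed to between 1.60 and 3.63 CPM in vector control and between 1.89 and 2.61 CPM in ATM KO tumors, Cdx2 was at 0 in every tumor, and 1 of the 8 was tested.

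The other members had no called increase. Of the 56 tested members besides Cdhr2, 0 were higher and 1 was lower in ATM KO tumors at an edgeR adjusted p below 0.05, where 2.21% of all tested genes were higher and 2.75% lower (4.96% in either direction). At an unadjusted p below 0.05 these counts were 3 higher (Pcdha8, Pcdha11, Pcdhb20) and 9 lower, against 10.6% and 12.3% of all genes. DESeq2 gave an adjusted p to 51 members, Cdhr2 among them, so it did not assess all of the 56. It called none of the 56 higher and 5 lower (Cdhr4, Celsr2, Fat1, Pcdh9 and Pcdhb11). Of the 15080 genes that it assessed, 5.73% were higher and 6.97% lower. Limma-voom called none higher and Fat1 lower, against 1.97% and 2.41% of all genes. All 3 ATM KO values lay above all vector control values in 4 of the 56 and below them in 10, against 14.3% and 15.4% of all tested genes. The median log2 fold change of the 57 tested members was -0.07 and that of all tested genes -0.0058. Within the 56, 24 fold changes were above 0 and 32 below.

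**Figure D2:**
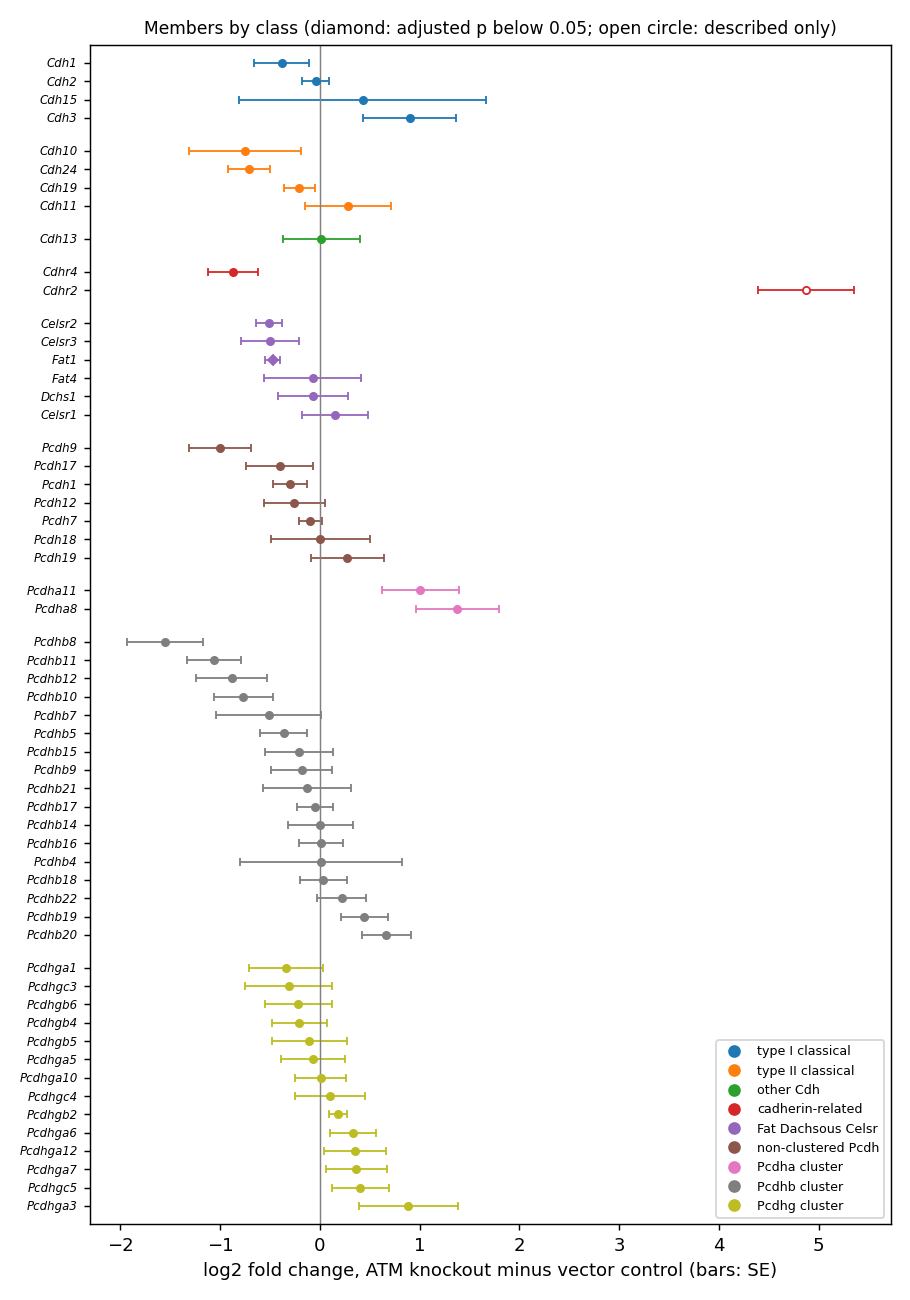
Log2 fold change (ATM KO minus vector control, edgeR) of each of the 57 tested members, grouped by structural class, with bars of 1 SE. Cdhr2 lies at 4.88 as an open circle, Fat1 at -0.47 is the diamond with an adjusted p below 0.05, and the others lie between -1.55 (Pcdhb8) and 1.38 (Pcdha8).

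**Figure D3:**
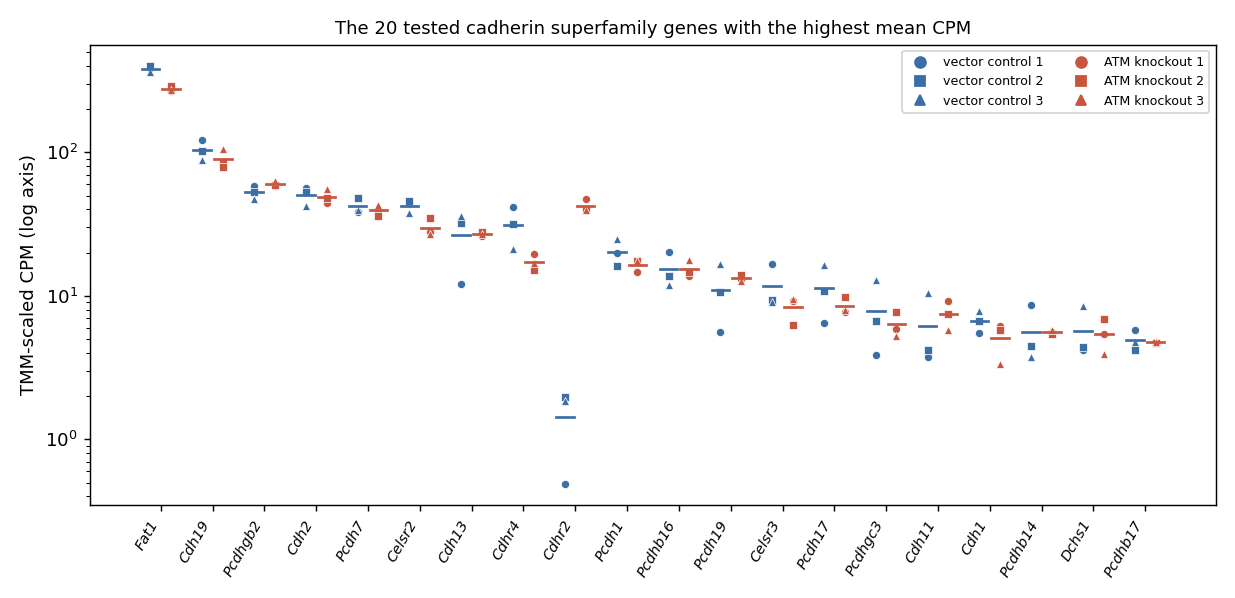
TMM-scaled CPM (log axis) of the 20 tested members with the highest mean, 1 point per tumor, with bars at the group means. Fat1 leads at 268 to 402 CPM, and the groups do not overlap for Cdhr2, Fat1, Celsr2 and Cdhr4. Over all tested genes, the ATM KO values lay wholly above in 14.3% and wholly below in 15.4%.

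Fat1 was the most counted member, and of the 56 members besides Cdhr2 it was the one that passed the test. Fat1 (ENSMUSG00000070047.14, chromosome 8, 44935447 to 45052257, plus strand) encodes a giant cadherin that acts on actin, polarity and Hippo signaling. Its CPM was 388, 402 and 361 in vector control and 268, 289 and 272 in ATM KO tumors. The 3 ATM KO tumors were the lowest, with no overlap, and the mean fell from 384 ± 21.04 to 276 ± 10.9 CPM (SD, n = 3 per group). Its log2 fold change was -0.47 ± 0.07 with an edgeR adjusted p of 0.0289. The direction held without any 1 tumor (-0.51 to -0.41), but the call was lost without vector control tumor 2 or 3 or any 1 of the ATM KO tumors (edgeR adjusted p of 0.0571 to 0.134) and was kept without vector control tumor 1 (0.0305). Genes of chromosome 8 were lower in general: the median log2 fold change of its 826 tested genes was -0.26, with 11.99% called lower, and that of the 44 other tested genes between 40000000 and 50000000 was -0.25. The part of that shift in the fall of Fat1 was not tested. The 5 other tested members on chromosome 8, Cdh1, Cdh3, Cdh11, Cdh13 and Cdh15, had fold changes on both sides of 0.

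Because Fat1 held 34.1% to 43.3% of all family counts, it set much of the family total. The whole family took 875 to 920 CPM (not TMM-scaled) in vector control and 795 to 804 in ATM KO tumors. Without Fat1 these shares were 511 to 522 and 511 to 529 CPM, which overlap. Without Fat1 and Cdhr2 they were 510 to 520 and 470 to 489 CPM, and the groups no longer overlapped.

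The other Fat, Dachsous and Celsr genes were measured at lower levels. Celsr2, a cadherin with a receptor-like membrane part that acts in planar polarity, was at 44.0, 45.7 and 37.9 CPM against 28.0, 34.7 and 26.9. The groups did not overlap (log2 fold change -0.51 ± 0.13), but the edgeR adjusted p was 0.0724. With DESeq2 it was 0.00952, and with no low-count filter the gene also passed. Celsr3, of the same kind, was at 16.7, 9.37 and 9.11 CPM against 9.19, 6.30 and 9.44. Vector control tumor 1 stood high and the others overlapped (log2 fold change -0.50 ± 0.29, edgeR adjusted p = 0.376). Celsr1, Dchs1 and Fat4 had log2 fold changes of 0.15, -0.07 and -0.07. Fat2, Fat3 and Dchs2 had at most 13 counts in any tumor and were not tested.

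Planar polarity partners were read from the same fit. None of 10 was higher and 1 was lower, beside 2.21% and 2.75% of all tested genes. The lower one was Fzd6, a Frizzled receptor of planar polarity known from mouse hair. Fzd6 was at 38.6, 36.2 and 36.7 CPM in vector control and 18.3, 18.5 and 14.2 CPM in ATM KO tumors. The groups were well apart, and the mean fell from 37.2 ± 1.28 to 17.02 ± 2.42 CPM (SD, n = 3 per group; log2 fold change -1.13 ± 0.12, edgeR adjusted p = 0.0120). Without vector control tumor 2, ATM KO tumor 1 or ATM KO tumor 2 its edgeR adjusted p was 0.0732, 0.0872 and 0.0634. Chromosome 15, which holds Fzd6, had a median log2 fold change of 0.09 over 611 tested genes. Fzd3, a related receptor, had a log2 fold change of -0.89 (edgeR adjusted p = 0.122). It lies on chromosome 14, where the median over 533 tested genes was -0.35, with 21.4% called lower. Vangl1, a membrane protein of the same system, had a log2 fold change of 0.37 (edgeR adjusted p = 0.105).

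Among the type I classical cadherins, N-cadherin was the leading gene in every tumor. Cdh2 held 79.5% to 92.7% of the counts of the class and was at 56.5, 53.1 and 42.5 CPM in vector control and 44.4, 48.1 and 55.1 CPM in ATM KO tumors. The groups overlapped over most of their range (log2 fold change -0.04 ± 0.13, edgeR adjusted p = 0.896), and with library size as the only scaling the value was 0.0066. Cdh1 (E-cadherin) was at 5.53, 6.63 and 7.78 CPM against 6.15, 5.80 and 3.35, also overlapping (log2 fold change -0.38 ± 0.27, edgeR adjusted p = 0.476), and the value was -0.24 without vector control tumor 3 and -0.15 without ATM KO tumor 3. Cdh3 (P-cadherin, of skin epithelium) was at no more than 1.22 CPM in any tumor, with group means of 0.501 ± 0.279 and 0.944 ± 0.243 CPM (SD, n = 3 per group; edgeR adjusted p = 0.308). On the scale per exon length (RPKM, CPM divided by kilobases of exon), Cdh2 stood at 6.29 ± 0.909 in vector control and 6.10 ± 0.672 in ATM KO tumors and Cdh1 at 1.45 and 1.12.

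Cdh15 (M-cadherin, the cadherin of muscle precursor cells) followed single tumors, not groups. It had 7, 4 and 57 counts in vector control and 17, 83 and 6 in ATM KO tumors. Vector control tumor 3 and ATM KO tumor 2 were high, the same tumors in which the skeletal muscle markers reached 6484 and 6024 CPM. Its log2 fold change was 0.43 ± 1.24 (edgeR adjusted p = 0.890), and -1.11 without ATM KO tumor 2. The part of muscle tissue in its counts was not tested.

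3 catenins, proteins that hold classical cadherins to actin, were followed by name. Ctnnb1 (β-catenin) was at 1541 ± 269 and 1558 ± 66.1 CPM, Ctnna1 (α-catenin) at 266 ± 20.1 and 273 ± 14.8, and Ctnnd1 (p120-catenin) at 43.2 ± 3.42 and 44.1 ± 7.32 CPM (SD, n = 3 per group). Their log2 fold changes were 0.02 ± 0.13, 0.04 ± 0.08 and 0.03 ± 0.13, with edgeR adjusted p of 0.965, 0.852 and 0.937. The signs of Ctnnb1 and Ctnnd1 turned without vector control tumor 3 or ATM KO tumor 3. Of the 12 tested catenins and plaque proteins, 0 were higher and 1 was lower, beside 2.21% and 2.75% of all tested genes. The lower one, Afdn (afadin), which joins nectins to actin, fell from 242 ± 13.9 to 176 ± 11.6 CPM (log2 fold change -0.46 ± 0.08, edgeR adjusted p = 0.0350). That call was kept only without vector control tumor 1 among the 6 fits that leave out a tumor, and the edgeR adjusted p in the other 5 was 0.0685 to 0.140.

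The regulators of E-cadherin and the proteases Adam10 and Adam15 gave no call. Among Snai1, Snai2, Zeb1, Zeb2 and Twist1, factors known to repress Cdh1 or accompany its loss, log2 fold changes ran from -0.55 (Twist1) to 0.03 (Zeb2), with edgeR adjusted p of 0.279 or more. At an unadjusted p below 0.05 the count among these 5 was 0. Adam10 and Adam15, which cut cadherins at the membrane, had log2 fold changes of -0.23 and 0.05. Over all 47 listed partners, 39 were tested, and edgeR called 0 higher and 3 lower, beside 2.21% and 2.75% of all tested genes. DESeq2 called 2 higher and 5 lower, beside 5.73% and 6.97%, and 3 were higher and 5 lower when p was left unadjusted (below 0.05), beside 10.6% and 12.3%.

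Among the type II classical cadherins, 1 gene held nearly all counts. Cdh19, a cadherin of the neural crest and Schwann cell lineage, held 84.1% to 93.3% of the class and was at 121, 102 and 88.3 CPM in vector control and 86.0, 78.4 and 106 CPM in ATM KO tumors. The groups overlapped (log2 fold change -0.21 ± 0.15, edgeR adjusted p = 0.497), and the value was -0.08 without vector control tumor 1, -0.12 without ATM KO tumor 2 and -0.33 without ATM KO tumor 3. Per length, the members with the highest means in vector control tumors were Fat1 (24.5 ± 1.34 RPKM), Cdh19 (24.3 ± 3.84), Cdhr4 (19.3 ± 6.27) and Pcdhgb2 (19.1 ± 2.09), followed by Cdh2 (6.29). In ATM KO tumors they were Pcdhgb2 (21.7 ± 0.910 RPKM), Cdh19 (21.04 ± 3.29) and Fat1 (17.7 ± 0.696), followed by Cdhr4 (10.53) and Cdhr2 (10.3). The range of Cdh19 over tumors overlapped those of Fat1 and Pcdhgb2 in both groups. Read tumor by tumor, Cdh19 was above Pcdhgb2 in each vector control tumor. Its order against Pcdhgb2 in ATM KO tumors, and against Fat1 in either group, differed between tumors. Cdhr2 was at 0.348 ± 0.2001 RPKM in vector control tumors, below Pcdh7 (3.97) and Celsr2 (3.69).

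The weakly expressed type II genes Cdh24 and Cdh10 were both lower on average. Cdh24 was at 4.42, 3.98 and 3.64 CPM against 2.83, 2.43 and 2.09, without overlap (log2 fold change -0.71 ± 0.21, edgeR adjusted p = 0.106). It lies on chromosome 14, whose 533 tested genes had a median log2 fold change of -0.35, with 21.4% called lower. Cdh10 was at 0.442, 2.29 and 1.95 CPM against 0.779, 0.966 and 1.03, with vector control tumor 1 the lowest of all (log2 fold change -0.75 ± 0.56, edgeR adjusted p = 0.498). Without vector control tumor 1 its log2 fold change was -1.18 and its edgeR adjusted p 0.0455.

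Cdh13, Cdh11 and Pcdh18 were lowest in vector control tumor 1, the tumor with the fewest fibroblast marker counts. Its summed CPM of skeletal muscle, adipocyte and leukocyte markers (17.9, 0.0442 and 225) was also the lowest, and that of melanocytic markers (27174) the highest. The endothelial sum was not lowest there. Over all tested members 26.3% had their lowest value in this tumor, close to the 24.7% over all tested genes. As many members (26.3%) had their highest value there, beside 25.4% of all tested genes. Cdh11 and Pcdh18 were named after their values were seen. Cdh13 (T-cadherin, held to the membrane by a lipid anchor and known from vessels) was at 12.1, 32.2 and 35.7 CPM against 26.0, 27.9 and 27.0. The vector control range enclosed all ATM KO values (log2 fold change 0.01 ± 0.39, edgeR adjusted p = 0.991), and without vector control tumor 1 the value was -0.33 (edgeR adjusted p = 0.0786). Cdh11, a cadherin of mesenchymal cells, was at 3.76, 4.16 and 10.5 CPM against 9.14, 7.52 and 5.78, and Pcdh18 at 1.19, 2.79 and 4.39 CPM against 3.24, 3.36 and 1.81. Pcdh12, a protocadherin of endothelium, was at 3.23, 3.15 and 5.96 CPM against 3.65, 3.79 and 2.91, highest in vector control tumor 3. The 6 endothelial markers were highest in that tumor as well, with a summed CPM of 160, 171 and 277 against 144, 157 and 129. How far the makeup of the tumors set these members' values was not tested.

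**Figure D4:**
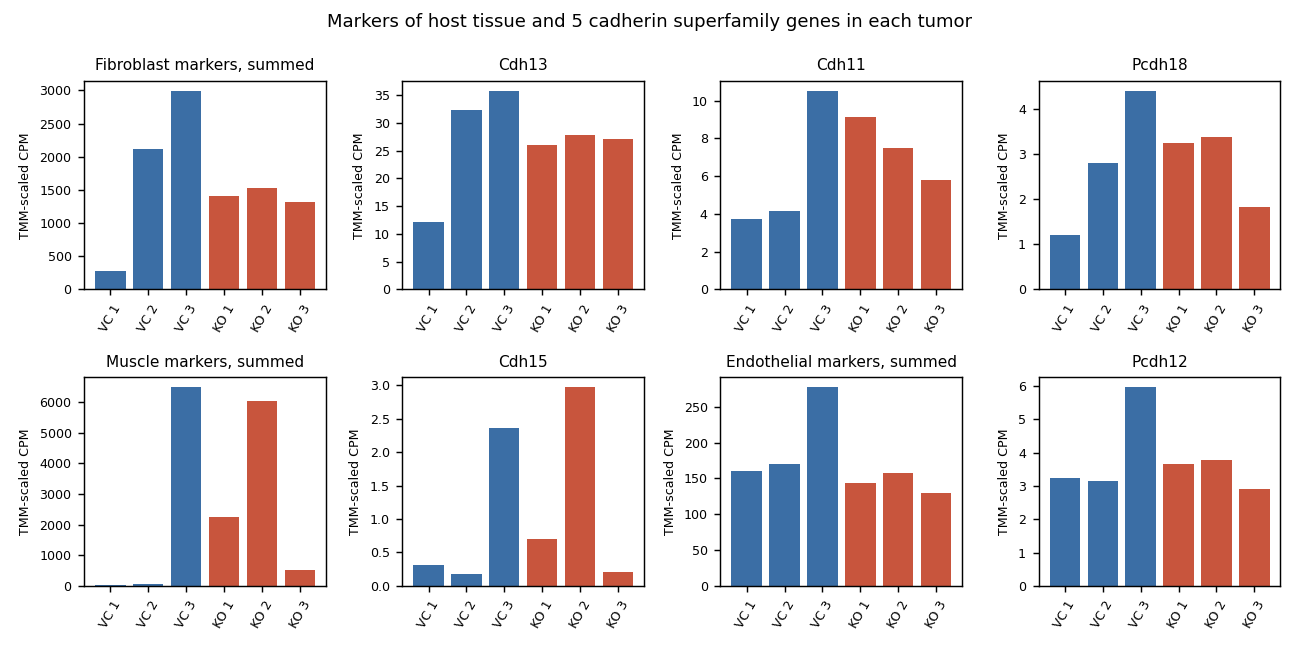
Summed TMM-scaled CPM of fibroblast, muscle and endothelial markers and the CPM of 5 members in each of the 6 tumors (VC, vector control; KO, ATM KO). Cdh13, Cdh11 and Pcdh18 are lowest in vector control tumor 1, as the fibroblast sum is. Over all tested genes 24.7% are lowest in that tumor. Cdh15 is highest in vector control tumor 3 and ATM KO tumor 2, as the muscle sum is.

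Desmosomal cadherins and keratinocyte genes were at or near 0. None of the 9 Dsg and Dsc genes, which link keratin filaments between epithelial cells, was tested. Dsg3 and Dsg4 were at 0 in all tumors, and the highest value was 22 counts of Dsc3 in vector control tumor 2. A count of 0 allows up to 3 counts, or 0.103 to 0.137 CPM depending on the library, which covers counting error only. The 6 keratinocyte markers summed to at most 0.274 CPM in any tumor, with Krt1, Krt5, Krt14 and Lor at 0 throughout.

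Besides Cdhr2, Cdhr4 was the cadherin-related gene with enough counts to be tested. It had 938, 689 and 510 counts in vector control and 474, 421 and 492 in ATM KO tumors, or 41.5, 31.5 and 21.1 against 19.4, 15.1 and 16.8 CPM. All ATM KO values were lower, with vector control tumor 3 close to them (log2 fold change -0.87 ± 0.25, edgeR adjusted p = 0.105). DESeq2 gave an adjusted p of 0.00742. Of its exon bases 47.3% are shared with another gene on the same strand, so its count rests on the rest. Within the class of 7 cadherin-related genes, Cdhr4 held 96.5% of counts at its highest, in a vector control tumor, and 26.7% at its lowest, in an ATM KO tumor, where Cdhr2 took up to 71.4%. Cdhr1 and Cdhr3 had at most 13 counts in any tumor.

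Non-clustered protocadherins were led by Pcdh7, with 35.1% to 49.5% of the counts of the class. Pcdh7 was at 38.3, 48.3 and 39.9 CPM in vector control and 39.4, 36.0 and 42.7 CPM in ATM KO tumors, and the groups overlapped (log2 fold change -0.10 ± 0.12, edgeR adjusted p = 0.688). Pcdh1, a protocadherin of epithelium, was at 20.3 ± 4.32 and 16.5 ± 1.56 CPM (SD, n = 3 per group; edgeR adjusted p = 0.363). Pcdh19, which is known from neurons, was at 5.57, 10.6 and 16.6 CPM against 13.0, 14.0 and 12.6, so that the vector control tumors spread widely around the ATM KO tumors (log2 fold change 0.27 ± 0.37). Pcdh9, also known from neurons, was at 2.57, 5.30 and 4.80 CPM against 2.13, 1.90 and 2.29, with no overlap (log2 fold change -1.001 ± 0.31, edgeR adjusted p = 0.121). Pcdh9 and Pcdh17 (log2 fold change -0.40, edgeR adjusted p = 0.540) lie on chromosome 14, and their fold changes stand beside the chromosome median of -0.35 given above. The value of Pcdh17 was -0.68 without vector control tumor 1 and -0.015 without vector control tumor 3. Without vector control tumor 1 the log2 fold change of Pcdh9 was -1.26 and its call passed.

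The 57 clustered protocadherin genes lie between 36930184 and 37841873 of chromosome 18, in the order Pcdha, Pcdhb, Pcdhg, and none was called. In the Pcdha and Pcdhg clusters each variable first exon is spliced to exons shared by the whole cluster, and reads on shared exons were not assigned to a single gene. The median share of exon bases shared with a same-strand gene was 53.6% in Pcdha, 44.6% in Pcdhg and 0% in Pcdhb, whose genes are mostly single exons. Of 14 Pcdha genes 2 were tested, of 22 Pcdhb genes 17 and of 21 Pcdhg genes 14. The median log2 fold changes were -0.13 over the tested Pcdhb and 0.05 over the tested Pcdhg genes. Over the 2 tested Pcdha genes, each at a mean of 0.529 CPM, the median was 1.19. The 373 tested chromosome 18 genes outside the family had a median of 0.04.

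A single gene held most Pcdhg counts. Pcdhgb2 had 63.6% to 79.3% of them and was at 58.6, 52.9 and 47.0 CPM in vector control and 58.0, 59.0 and 62.8 CPM in ATM KO tumors. Vector control tumor 1 lay within the ATM KO range (log2 fold change 0.18 ± 0.09, edgeR adjusted p = 0.309). The next Pcdhg gene by CPM was Pcdhgc3, at 3.89, 6.63 and 13.0 CPM against 5.91, 7.77 and 5.27, lowest in vector control tumor 1 and highest in vector control tumor 3. In Pcdhb the counts were spread over more genes. Pcdhb16 led with 26.2% to 34.2% of the counts of its cluster, at 15.3 ± 4.39 and 15.4 ± 2.13 CPM (SD, n = 3 per group; log2 fold change 0.01 ± 0.22).

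Within the Pcdhb cluster the fold changes went both ways. Pcdhb11 was at 3.85, 6.68 and 4.47 CPM in vector control and 2.05, 2.33 and 2.77 CPM in ATM KO tumors, with no overlap (log2 fold change -1.07 ± 0.27, edgeR adjusted p = 0.0769). Pcdhb8 was at 0.619, 0.549 and 0.580 CPM against 0.123, 0.286 and 0.171, also with no overlap (log2 fold change -1.55 ± 0.38, edgeR adjusted p = 0.0712). Pcdhb10 and Pcdhb12 had log2 fold changes of -0.77 and -0.88 with edgeR adjusted p of 0.194 and 0.204. On the other side Pcdhb20 was at 1.19, 0.960 and 1.20 CPM against 2.01, 1.90 and 1.44 (log2 fold change 0.67 ± 0.25, edgeR adjusted p = 0.174). Of the 17 tested, 7 fold changes were above 0 and 10 below, and the lowest edgeR adjusted p was 0.0712.

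The Pcdha genes were hardly read. Pcdha1, Pcdha2, Pcdha3, Pcdha4, Pcdha6 and Pcdha7 were at 0 in all tumors. Pcdha8 was at 0.442, 0.183 and 0.248 CPM in vector control and 0.943, 0.573 and 0.787 CPM in ATM KO tumors, without overlap (log2 fold change 1.38 ± 0.41, edgeR adjusted p = 0.112). The better read of both Pcdha11 entries, ENSMUSG00000007440.10, was at 0.487, 0.229 and 0.331 CPM against 0.902, 0.680 and 0.547, again without overlap (log2 fold change 1.01 ± 0.38, edgeR adjusted p = 0.182). All Pcdha genes together had 24, 12 and 23 counts against 50, 38 and 52, so a few reads decide these values.

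**Figure D5:**
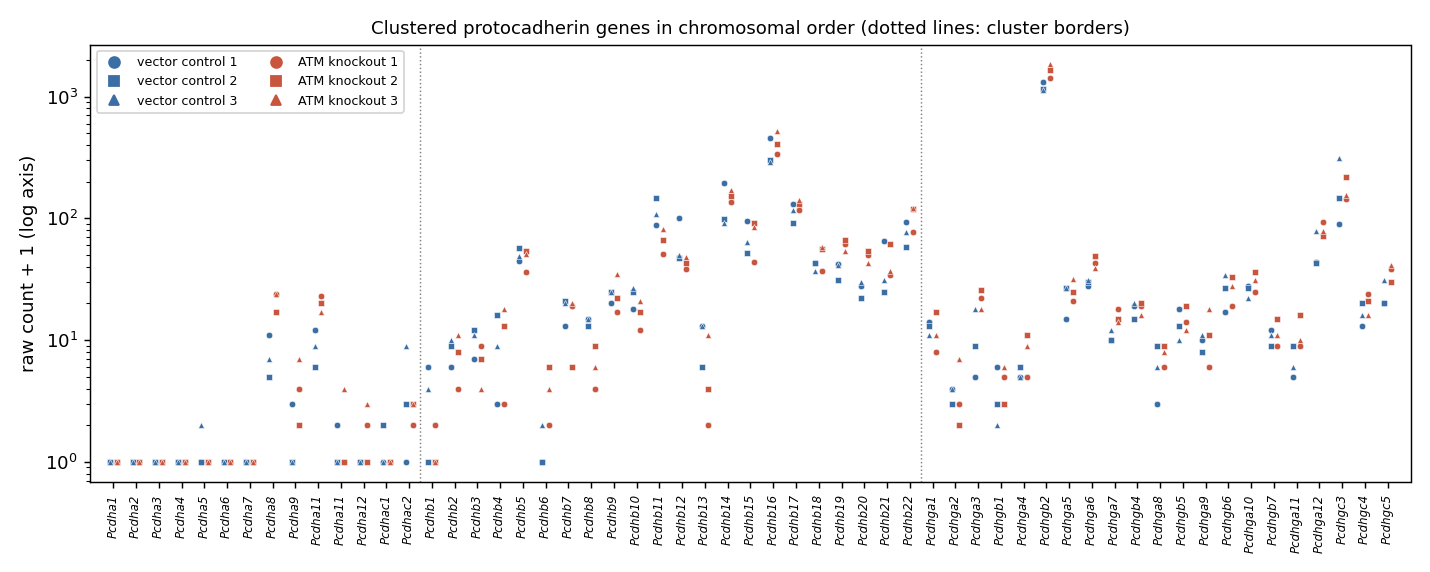
Raw counts plus 1 (log axis) of the 57 clustered protocadherin genes in chromosomal order, 1 point per tumor, with dotted lines between the Pcdha, Pcdhb and Pcdhg clusters. Pcdhgb2 stands far above its neighbors in all 6 tumors, most Pcdha genes lie at or near 0, and the Pcdhb genes cover a wide range of counts.

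Members as a group had low counts in these tumors. Reads on exons shared with a same-strand gene are missing from them, with median shares of 53.6% in Pcdha and 44.6% in Pcdhg. The median of the mean CPM was 2.68 over tested members and 22.3 over all tested genes; 9 tested members were above 20 CPM and 15 below 1 CPM. Of the 57 members that were not tested, 9 had no count in any tumor and 21 a total of 1 to 10 counts, and none had more than 22 counts in a tumor. The tested members passed a filter on counts, so their number and medians do not stand for all 114.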

How the data were processed

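Whole-tumor RNA of 6 B16 melanomas was sequenced, 3 vector control and 3 ATM KO, grouped by their titles. The authors deposited 1 table of raw counts per library. Per the submitters' processing notes, the tools included HTSeq, SAMtools, STAR, cutadapt and Trim Galore, with GRCm38 and mm10 as builds and no versions, roles or order; no strand setting is given. All 55536 identifiers and symbols matched GENCODE M21, which supplied coordinates and exons. In these counts, 214 of 482 genes wholly covered by exons of the opposite strand had counts, and 0 of 765 genes wholly covered on their own strand did, so counts were kept by strand and reads on several same-strand genes were dropped. Rows that name no gene (reads outside genes, 16.7% to 18.2%; reads on several genes, 1.21% to 1.38%) were left out.

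With edgeR 4.0.16 in R 4.3.3, counts were filtered by filterByExpr (at least 10 counts, total 15), scaled by TMM (factors 0.958 to 1.03) and tested for genotype by robust quasi-likelihood F tests in 1 fit over 15696 genes. P-values were adjusted by Benjamini-Hochberg over all of these genes and called below 0.05. CPM is TMM-scaled; RPKM divides it by the kilobases of exon not shared with a same-strand gene. The common biological coefficient of variation was 27.6%. The fit was tested on simulated data. Pairs of libraries within a group all differed by more than sampling noise (chi-square 21.5 to 81.5 per degree of freedom).

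Members and lists were chosen with earlier results of these data known. Named genes are Cdhr2, called members, the 12 with the highest CPM, up to 3 per class with the smallest p, Cdh1, Cdh2, Cdh3, Cdh13 and Cdhr5, called partners and 3 catenins; other genes were named after their values were seen. The values of 1 listed partner are not reported here. Alternatives were median-ratio or no scaling factors, no filter or 1 CPM in 3 libraries, DESeq2 1.42.0, limma-voom (limma 3.58.1), non-robust dispersions, a replicate block, thresholds of 0.10 and 0.01, and each tumor left out. Promoter windows are RefSeq's (GRCm38.p6); protein sequences were not used here.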

Additional observations from a re-analysis of the deposited data

How the results depend on the processing

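Of the tested members, 15 were under 1 CPM. No member besides Cdhr2 was called higher under any alternative; the tally of higher members, 1 or 0 as Cdhr2 passed or not, is fixed by the choice of the family and tests nothing. The number called lower, 1 in the reported fit, was 2 with no low-count filter, 5 with DESeq2, 4 at a threshold of 0.10 and 0 at 0.01. Leaving out 1 tumor gave 0 to 4 lower; the call of Fat1 was kept only without vector control tumor 1, which added Cdh10, Pcdh9 and Pcdhb11. Over all genes, 347 were higher and 431 lower, against 864 and 1051 with DESeq2, 783 and 916 at 0.10, 26 and 22 at 0.01, and 0 to 587 and 2 to 622 with 1 tumor left out. Partners called numbered 0 higher and 3 lower, against 2 and 5 with DESeq2, 1 higher at 0.10, 0 lower at 0.01, and 0 to 4 lower with 1 tumor left out. The cause of these differences was not tested.

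Whether the replicate numbers pair the tumors is not in the labels. The deviations of same-numbered tumors from their group means correlated at 0.04, -0.27 and -0.42. With 3 tumors per group these deviations sum to 0 within each group, so the correlations cannot decide it. With the number as a replicate block, 0 genes were higher and 0 lower, and 0 members and 0 partners were called; not every tumor correlated best with its own number.

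Signs that turned belonged to genes that did not pass the test. With library size alone Cdh2 was 0.0066. With 1 tumor left out, Cdh2 ran from -0.15 to 0.044, Pcdh7 from -0.16 to 0.041, Cdh13 from -0.33 to 0.29, Pcdhb16 from -0.13 to 0.27, Pcdh19 from -0.039 to 0.72, Cdh15 from -1.11 to 2.38, Ctnnb1 from -0.068 to 0.17 and Ctnnd1 from -0.10 to 0.14. Among values that kept their sign, leaving out 1 tumor moved Celsr3 to between -0.64 and -0.15 (lowest in size without vector control tumor 1), Pcdh1 to between -0.41 and -0.12 (vector control tumor 3), Cdh3 to between 0.59 and 1.40 (vector control tumors 2 and 3) and Cdh10 to between -1.18 and -0.35 (vector control tumors 1 and 2). The median log2 fold change of tested members lay between -0.11 and -0.03 in the 13 alternatives run.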
